A study of Vitis vinifera with 66 samples.

Results

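Grape berries soften at véraison, the onset of ripening, while their cell walls are loosened and their pectin is taken apart. Expansins are wall proteins that loosen the contacts between cellulose and other wall polymers without cutting them, and their genes are known to be active in growing and ripening fruits. Pectin is the gel that joins plant cells: pectin methylesterases strip methyl groups from its chains, polygalacturonases cut the chains that have lost these groups, and pectin lyases cut chains that still carry them. The transcripts of 7 such genes were followed here in ripening berries: the expansins VIT_13s0067g02930, VIT_17s0053g00990, VIT_18s0001g01130 and VIT_15s0021g02700, the polygalacturonase PG1 (VIT_08s0007g08330), a pectin methylesterase (VIT_07s0005g00730) and a pectin lyase (VIT_07s0005g02090).

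The 7 genes were picked by their IDs from the 29688 rows of the count table, with earlier results of these data known, and the study had singled out the pectin lyase by correlations over these same samples. Each ID had 1 row there, and all 7 were among the 19625 rows tested, those reaching 0.5 CPM (read counts normalized to library size) in 3 or more libraries. The pectin lyase reached 0.5 CPM in libraries of C from T0 to T3 and of F at T0 and T1, and in no library of H or FH, so that its low values at later times and in H were in part set by the filter. Its levels are therefore given as counts, and fitted fold changes of it only in figures and where the stability of a call is described. The number of genes called in a contrast is also given without it where it was among them. Medians over the 7 genes and totals over several contrasts include it. The study names the pectin lyase, whereas the other 6 names came with the list of IDs, and neither the table nor the reference annotation at hand pairs an ID with a name or a sequence. Gene lengths were not given either, so that levels are compared between groups and not between genes.

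The berries came from potted vines of the cultivar Sauvignon Blanc grafted on K5BB, all grown under tunnels. Control vines (C) met no imposed stress, and F vines were waterlogged in spring at budbreak. H vines met a summer drought down to 30% of field capacity and then a heatwave with the thermostat set at +5 °C. FH vines met the spring and the summer stress. The paper reports a smaller rise within the berries, and FH berries that were warmer than H berries by day. C and F berries were sampled at T0 and then after 9 (T1), 13 (T2), 15 (T3), 24 (T4) and 28 days (T5, harvest), and H and FH berries from T1 on. Drought alone had been imposed at T1, T2 and T3 fell within the heatwave, and T4 and T5 came after it. H and FH samples are listed at 30% of field capacity at T4 and T5 too, whereas the paper places T4 after 9 days of recovery. How these vines were watered after the heatwave is therefore unsure. Each of the 22 groups had 3 libraries, from different vines by the paper's account, and which season they came from is not stated. H and FH stood in another tunnel than C and F, so that the summer stress and the tunnel cannot be told apart. In whole berries, fewer cells of a type and less RNA per cell cannot be told apart either.

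Total counts per library ranged from 15927671 to 24150978, with a median of 19168492. T5 F replicates 1 and 2 differed by only 1.87 in chi-square per degree of freedom, against at least 8.95 in every other pair of replicates, and were kept as separate replicates. Whether these 2 libraries are independent is unsure, and so are the SE and intervals of contrasts with F at T5. As a description of stage, each library was given a ripening score from 11088 other genes, scaled so that the mean of C was 0 at T0 and 1 at T5.

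In control berries 3 of the expansins and PG1 were lowest at T0 and high by T2, the expansin VIT_17s0053g00990 was high at T2 and T3 only, and the pectin methylesterase and the pectin lyase were highest at T0. Of the 7 genes, 5 passed the test from T0 to T1 (called: adjusted p below 0.05, and at least 1.5-fold), against 16.5% of all genes tested, and 5 from T1 to T2, against 19.2%. The median log2 fold change of the 7 was 1.74 and then 1.52, where that of all genes tested was -0.02 and -0.03.

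**Figure D1:**
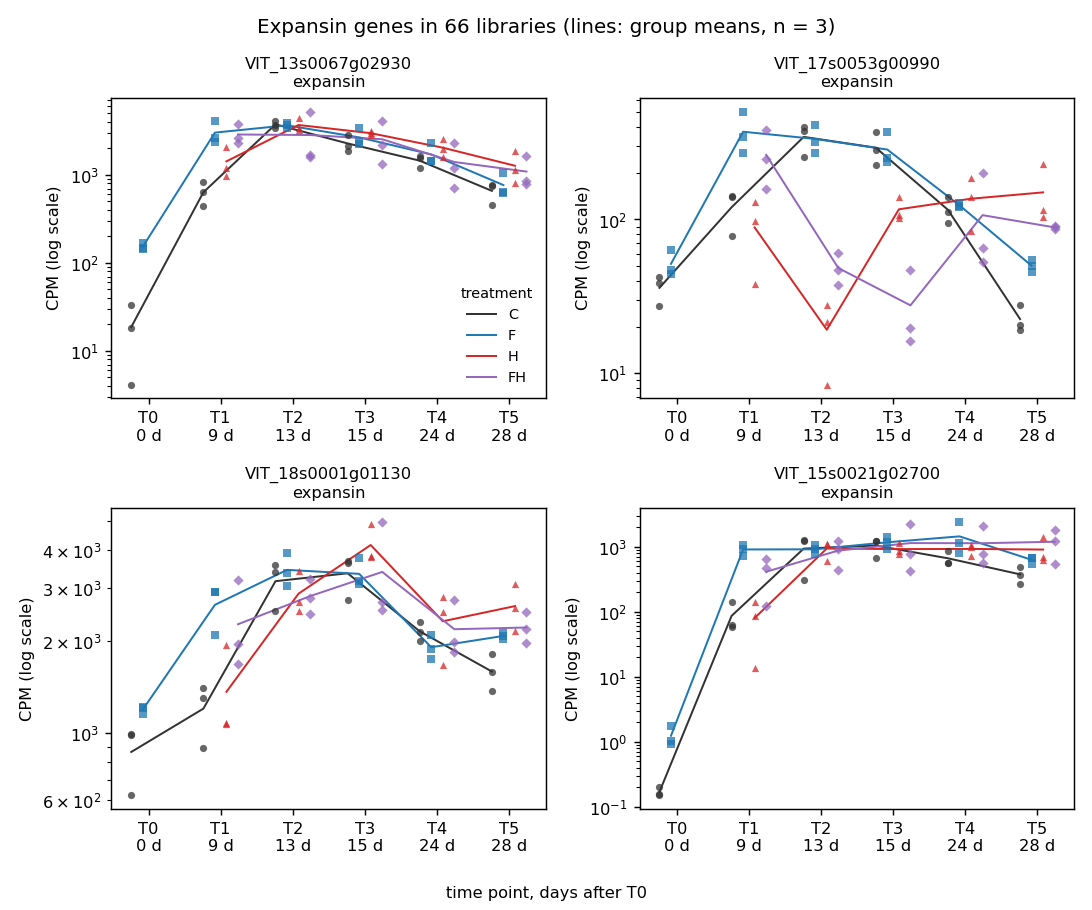
Normalized read counts (CPM, log axis, a different range in each panel) of the 4 expansin genes by time point, with the days after T0 below. Each point is a library, each line joins the group means (n = 3), and colour and shape give the treatment; VIT_17s0053g00990 drops in H and FH at T2, to 8.43 to 60.2 CPM, where C and F libraries lie between 253 and 410 CPM.

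The expansin VIT_13s0067g02930 was at 18.4, 33.5 and 4.12 CPM in the 3 T0 libraries of C and at 442, 633 and 825 CPM at T1. At T2 it reached 3416, 3725 and 4099 CPM. No library of one of these time points overlapped the next. The step from T0 to T1 was 33.9-fold (log2 fold change 5.08, SE 0.53, adjusted p = 1.9e-09), and that from T1 to T2 was 5.92-fold (2.56, SE 0.47, adjusted p = 0.00014). Without T0 C replicate 2 the first step was 56-fold. After T2 the gene was at lower values in C, down to 460 to 758 CPM at T5, though no single step after T2 passed the test (T4 to T5, log2 fold change -1.14, SE 0.45, adjusted p = 0.13). At T5 it was still 35.2-fold above T0 (5.14, SE 0.53, adjusted p = 3.5e-11), or 58.2-fold without T0 C replicate 2.

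The expansin VIT_15s0021g02700 started from almost nothing. The T0 libraries of C held 4, 3 and 3 counts of it (0.201, 0.150 and 0.157 CPM), and those of T1 were at 58.3, 62.1 and 140 CPM. The ratio of the pooled counts was 509, with a 95% exact interval of 277 to 1062 that covers counting error only, and the fitted log2 fold change was 8.95 (SE 0.93, adjusted p = 2e-09). At T2 the libraries were at 312, 1237 and 1277 CPM, 10.9-fold above T1 (3.44, SE 0.63, adjusted p = 0.00015), with replicate 1 well below the other replicates. The gene kept to 564 to 1241 CPM at T3 and T4 and to 268 to 499 CPM at T5, and none of the steps after T2 was called. From T0 to T5 the ratio of its pooled counts was 2257 (1227 to 4707).

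PG1 had a similar start. Its T0 libraries of C held 2, 2 and 1 counts, and its T1 libraries were at 63.0, 12.1 and 30.8 CPM. Pooled counts gave a ratio of 422 (95% exact interval 181 to 1301, counting error only), and the fitted log2 fold change was 8.60 (SE 1.36, adjusted p = 1.1e-05), a fold of 388, or of 235 without T1 C replicate 1. At T2 the libraries were at 274, 148 and 259 CPM, all above those of T1 (6.43-fold, log2 fold change 2.69, SE 0.84, adjusted p = 0.017). This second step depended on the T1 libraries of C: the log2 fold change was 2.28 without replicate 2 (adjusted p = 0.08), 2.60 without replicate 3 (adjusted p = 0.056) and 3.40 without replicate 1 (adjusted p = 0.022). At T3 the replicates spread from 87.8 to 512 CPM, and no later step of PG1 in C was called.

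The expansin VIT_17s0053g00990 rose and fell again within the season. It was at 42.3, 38.4 and 27.2 CPM at T0 in C, at 77.8, 139 and 143 CPM at T1, and at 401, 253 and 378 CPM at T2. It was at 112, 140 and 95.3 CPM at T4 and at 28, 20.6 and 19.1 CPM at T5. The rises to T1 (3.33-fold, adjusted p = 0.0026) and to T2 (2.87-fold, adjusted p = 0.007) were called, and so were the falls from T3 to T4 (2.53-fold, adjusted p = 0.021) and from T4 to T5 (5.12-fold, adjusted p = 0.0012). Harvest and T0 overlapped (log2 fold change -0.67, 95% interval -1.51 to 0.16, adjusted p = 0.15), and the difference was called with only the C libraries in the fit (-0.65). The step from T1 to T2 missed the threshold without T1 C replicate 1 (log2 fold change 1.28, adjusted p = 0.06), and the fall from T3 to T4 missed it without T3 C replicate 1 (-1.14, adjusted p = 0.13), T4 C replicate 1 (-1.32, adjusted p = 0.061) or T4 C replicate 3 (-1.22, adjusted p = 0.089).

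The expansin VIT_18s0001g01130 moved least. It was at 980, 990 and 622 CPM at T0 in C and at 892, 1302 and 1406 CPM at T1, which overlapped (log2 fold change 0.47, SE 0.24, adjusted p = 0.15). At T2 it was at 2511, 3562 and 3393 CPM, 2.63-fold above T1 (1.39, SE 0.24, adjusted p = 8.5e-05). Harvest libraries, at 1586, 1814 and 1372 CPM, were 1.84-fold above those of T0 (0.88, SE 0.24, adjusted p = 0.0015).

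The pectin methylesterase fell over the whole course. Its C libraries were at 140, 131 and 251 CPM at T0, at 52.2, 39.7 and 33.4 CPM at T1 and at 1.69, 1.51 and 1.99 CPM at T5. From T0 to T5 the log2 fold change was -6.65 (SE 0.49, adjusted p = 8.7e-15), with called steps from T0 to T1 (-2.06, SE 0.39, adjusted p = 0.00017), from T3 to T4 (-2.06, SE 0.41, adjusted p = 0.0008) and from T4 to T5 (-1.41, SE 0.43, adjusted p = 0.046). The last of these was lost on leaving out T4 C replicate 1 or 2 or any of the T5 C libraries, with a log2 fold change of -1.20 to -1.51 and an adjusted p of 0.12 to 0.19, and it missed the threshold under RLE normalization (-1.39, adjusted p = 0.05) and with no filter on low counts (-1.38, adjusted p = 0.066).

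The pectin lyase was rare throughout, with 248 counts in all 66 libraries and 0 counts in 31 of them. In C it had 19, 31 and 9 counts at T0, 15, 9 and 6 at T1, 14, 6 and 6 at T2, 17, 0 and 1 at T3, and 0 in every library of T4 and T5. With a floor of 3 counts per library it was at least 7.99-fold lower at T5 than at T0, by the mean of T0. The mean of T3 was 2.22-fold above the floor of T4, which is no lower bound, since replicates 2 and 3 of T3 lay under that floor. The call from T3 to T4 rested on T3 C replicate 1, without which the adjusted p was 0.47 (log2 fold change -2.47), and it also missed the threshold without T4 C replicate 2 (-5.65, adjusted p = 0.051) or replicate 3 (-5.65, adjusted p = 0.052) and with the replicate number as a block (-5.08, adjusted p = 0.052). DESeq2 gave it no adjusted p.

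Over the later steps in C the number of the 7 genes called was 0 from T2 to T3 (0 at a p under 0.05 before adjustment and 0 with DESeq2), where 0% of all genes tested were called. It was 3 from T3 to T4 (2 without the pectin lyase), against 14.8%, and 2 from T4 to T5, against 3.89%, all of them lower at the later time. VIT_18s0001g01130 was also called from T3 to T4 with only the C libraries (-0.63) and with DESeq2 (-0.63). Between T0 and T5, 6 of the 7 were called in C (5 without the pectin lyase), where 56.6% of all genes were.

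**Figure D2:**
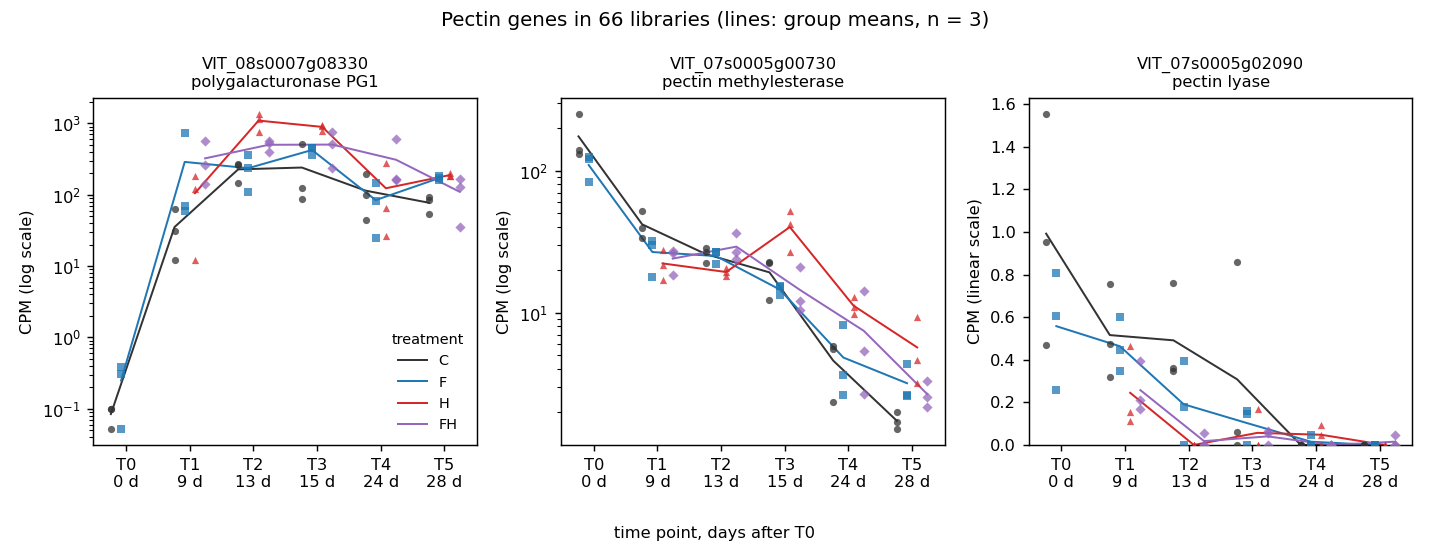
Normalized read counts (CPM) of the 3 pectin genes by time point, with the days after T0 below; the axis is logarithmic for PG1 and the pectin methylesterase and linear for the pectin lyase, which had libraries at 0. Each point is a library and each line joins the group means (n = 3); PG1 is highest in H at T2 and T3, from 757 to 1368 CPM.

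Spring flooding was compared at each time point as F vs. C. At T0, before any drought, F berries carried 167, 148 and 143 CPM of the expansin VIT_13s0067g02930 against 18.4, 33.5 and 4.12 CPM in C. All F libraries were above all C libraries, and the gene was 8.16-fold higher (log2 fold change 3.03, SE 0.48, adjusted p = 0.00085). It was the 1 member called at T0, when 0.0102% of all genes tested, 2 genes, were called. The fold was 13.5 without T0 C replicate 2, and the adjusted p was 0.58 when only the T0 libraries were fitted. VIT_15s0021g02700 had 18, 41 and 20 counts in F and 4, 3 and 3 in C at T0, a ratio of pooled counts of 7.49 (95% exact interval 3.87 to 16.2, counting error only), which did not pass the test (adjusted p = 1). VIT_18s0001g01130 (1155 to 1214 CPM in F, 622 to 990 CPM in C) and VIT_17s0053g00990 (44.4 to 63.3 and 27.2 to 42.3 CPM) were also higher in F with no overlap. The pectin methylesterase was lower with no overlap (83.4 to 124 and 131 to 251 CPM), and none of these was called. PG1 and the pectin lyase overlapped. The share of all genes tested whose groups did not overlap is not given here, so these cases have no background to be read against. The median log2 fold change was 0.52 over the 7 genes and 0 over all genes.

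At T1, 9 days later, 5 of the 7 genes were called in F vs. C, each of them higher in F, against 14.6% of all genes tested. These were the 4 expansins and PG1. The median log2 fold change was 1.63 over the 7 genes and -0.05 over all genes.

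VIT_13s0067g02930 was at 4098, 2337 and 2619 CPM in F at T1 and at 442, 633 and 825 CPM in C, 4.77-fold higher (log2 fold change 2.25, SE 0.46, adjusted p = 0.00078). VIT_15s0021g02700 was at 736, 931 and 1074 CPM in F and at 58.3, 62.1 and 140 CPM in C, 10.5-fold higher (3.40, SE 0.63, adjusted p = 0.00029). VIT_18s0001g01130 was at 2914, 2908 and 2090 CPM in F and at 892, 1302 and 1406 CPM in C, 2.20-fold higher (1.14, SE 0.24, adjusted p = 0.0011). In these 3 expansins every F library lay above every C library, and each call held on leaving out any T1 library of C or F. VIT_17s0053g00990 was at 502, 343 and 269 CPM in F and at 77.8, 139 and 143 CPM in C (1.63, SE 0.42, adjusted p = 0.0053), with an adjusted p of 0.053 and a log2 fold change of 1.39 without T1 C replicate 1.

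PG1 was less even. Its F libraries at T1 were at 68.9, 737 and 59.9 CPM and its C libraries at 63.0, 12.1 and 30.8 CPM, so that replicate 2 of F stood far above every other library and the groups overlapped. The log2 fold change was 3.03 (SE 0.85, adjusted p = 0.010) and fell to 0.87 without T1 F replicate 2 (adjusted p = 0.52). It was 2.62 without T1 C replicate 2 (adjusted p = 0.057), 3.76 without T1 C replicate 1 (adjusted p = 0.02), and 3.03 with only the T1 libraries in the fit (adjusted p = 0.093).

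The pectin methylesterase was at 30.1, 17.9 and 32.1 CPM in F at T1 and at 52.2, 39.7 and 33.4 CPM in C, lower in F with no overlap but not called (log2 fold change -0.65, 95% interval -1.41 to 0.12, adjusted p = 0.23). The pectin lyase had 11, 6 and 8 counts in F and 15, 9 and 6 in C (adjusted p = 0.93).

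The mean levels of the expansins in F at T1 were close to those in C at T2. VIT_13s0067g02930 averaged 3018 ± 946 CPM (SD, n = 3) in F at T1 and 3747 ± 342 CPM in C at T2. VIT_15s0021g02700 averaged 914 ± 169 and 942 ± 546 CPM, and VIT_17s0053g00990 averaged 372 ± 119 and 344 ± 79.7 CPM. VIT_18s0001g01130 averaged 2637 ± 474 and 3156 ± 565 CPM. PG1 was at 68.9, 737 and 59.9 CPM in F at T1 and at 274, 148 and 259 CPM in C at T2. Its F libraries thus lay below and above the range of C. Over C at T1 and these groups alone, the ripening score moved with the expansins. The score was 0.276 ± 0.045 in C at T1, 0.589 ± 0.057 in F at T1 and 0.588 ± 0.177 in C at T2. Its part in the result was not tested.

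**Figure D3:**
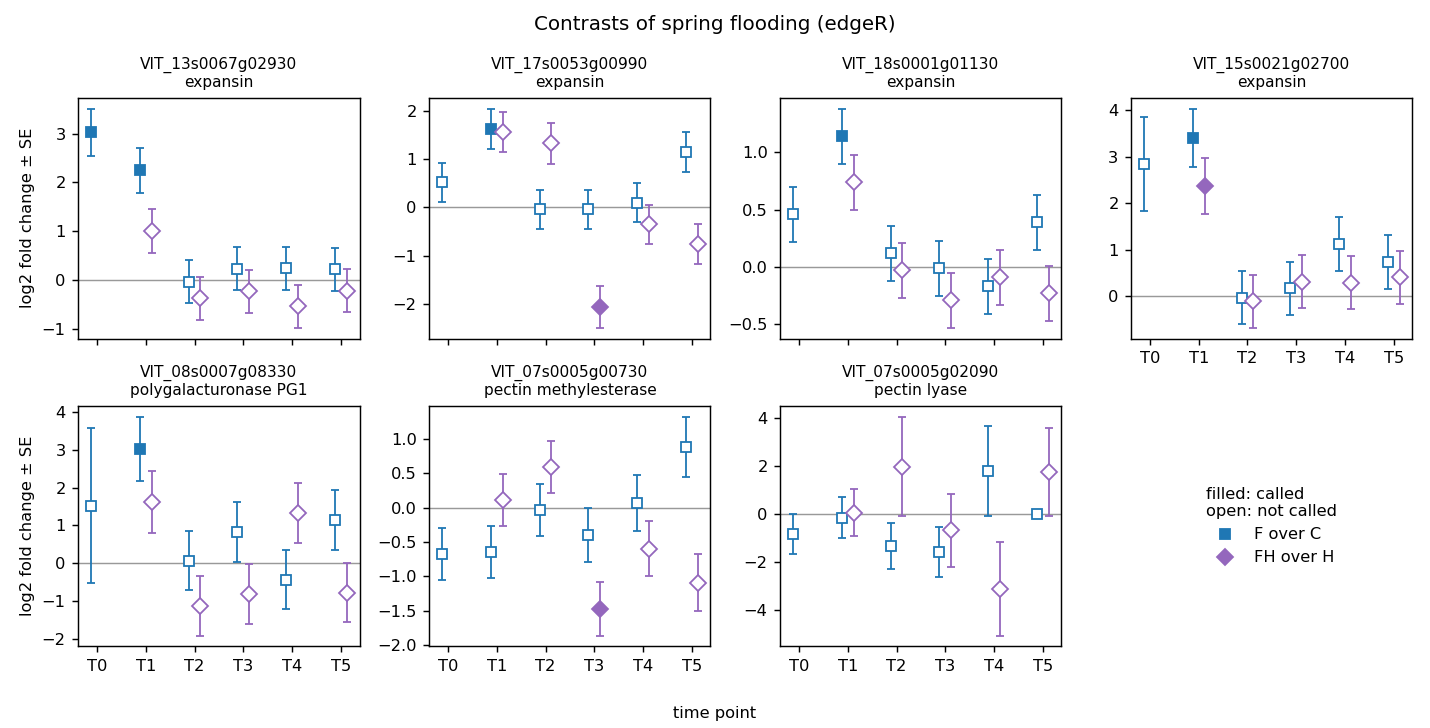
Log2 fold changes (± SE, edgeR) of the 7 genes in F vs. C from T0 to T5 (squares) and in FH vs. H from T1 to T5 (diamonds), with a different range in each panel; filled symbols are called. The filled squares of 4 expansins and PG1 fall at T1 or T0, and the pectin lyase values of groups at 0 counts depend on the prior count of the fit.

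From T2 on, 0 of the 28 pairs of gene and time point were called in F vs. C, where 0% of all genes were called at T2, T3, T4 and T5 (edgeR). DESeq2 also called 0 of the 7 genes at these times. At an unadjusted p under 0.05 the number was 2, both at T5, where 855 of all 19625 genes reached it. At T2 the log2 fold changes of the 4 expansins lay between -0.04 and 0.12. At T5 the expansin VIT_17s0053g00990 was at 45.8, 49.6 and 54.9 CPM in F and at 28, 20.6 and 19.1 CPM in C, all F libraries above those of C, and was not called (log2 fold change 1.15, 95% interval 0.31 to 1.99, adjusted p = 1). The pectin methylesterase was at 2.63, 2.57 and 4.34 CPM in F and at 1.69, 1.51 and 1.99 CPM in C at T5 (0.88, 95% interval 0.00 to 1.76, adjusted p = 1). PG1 was also higher in F at T5 with no overlap, at 159 to 184 CPM against 52.9 to 94.5 CPM in C. So were VIT_15s0021g02700 (537 to 683 against 268 to 499 CPM) and VIT_18s0001g01130 (2031 to 2129 against 1372 to 1814 CPM). VIT_13s0067g02930 overlapped, and the pectin lyase had 0 counts in both groups. The median log2 fold change at T5 was 0.74 over the 7 genes and -0.01 over all genes. T5 is where 2 F libraries were nearly alike, and groups with such libraries are apart more easily. The share of all genes without overlap at T5 is not given here either. Whether the effect of flooding differed between T1 and later times was not tested.

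Along the F course, 6 of the 7 genes were called from T0 to T1, when 39.6% of all genes were. The 4 expansins and PG1 were higher at T1 and the pectin methylesterase was lower. PG1 went from 6, 9 and 1 counts at T0 to 68.9, 737 and 59.9 CPM, a ratio of pooled counts of 1096 (95% exact interval 675 to 1918, counting error only) and a fold of 1103 in the fit, 246 without T1 F replicate 2 and 1677 with the replicate number as a block. VIT_15s0021g02700 rose by a ratio of 718 (576 to 908) and VIT_13s0067g02930 by 19.8-fold (adjusted p = 3.6e-09). Unlike in C, where 5 of the 7 were called from T1 to T2, the number was 0 in F (edgeR; 0 at a p under 0.05 before adjustment and 0 with DESeq2), against 2.67% of all genes. The difference between the courses was not tested.

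The later steps in F held 1 call among the 7 genes with all libraries in the fit. With only the F libraries 5 more were called, VIT_17s0053g00990 (log2 fold change -1.20) and VIT_18s0001g01130 (-0.80) from T3 to T4, and VIT_13s0067g02930 (-1.16), VIT_17s0053g00990 (-1.30) and VIT_15s0021g02700 (-1.20) from T4 to T5. DESeq2 called VIT_18s0001g01130 from T3 to T4 (-0.81, adjusted p = 0.031) and VIT_17s0053g00990 from T4 to T5 (-1.27, adjusted p = 0.039). From T2 to T3 the number was 0, against 0.0153% of all genes (edgeR), and 0 with DESeq2. Before adjustment 1 of the 7 had a p under 0.05, as had 2199 of all 19625 genes. From T3 to T4 the pectin methylesterase fell from 13.2, 15.1 and 15.3 CPM to 2.64, 8.20 and 3.62 CPM (log2 fold change -1.59, SE 0.40, adjusted p = 0.029), against 1.29% of all genes. That call was lost without T3 F replicate 2 (-1.56, adjusted p = 0.13), T3 F replicate 3 (-1.55, adjusted p = 0.065), T4 F replicate 1 (-1.29, adjusted p = 0.23) or T4 F replicate 3 (-1.42, adjusted p = 0.14), and the log2 fold change was -2.21 without T4 F replicate 2. From T4 to T5 the number was 0, against 2.04% (edgeR), and 1 with DESeq2. Before adjustment 3 of the 7 had a p under 0.05, as had 3969 of all 19625 genes. Over the whole course from T0 to T5, 6 of the 7 were called in F (5 without the pectin lyase), against 53.8% of all genes, in the same directions as in C: VIT_13s0067g02930, VIT_18s0001g01130, VIT_15s0021g02700 and PG1 were higher at T5, and the pectin methylesterase and the pectin lyase were lower.

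The summer stress was compared as H vs. C. At T1, under drought alone, 0 of the 7 genes were called, against 0.408% of all genes (edgeR), and 0 with DESeq2. Before adjustment 2 of the 7 had a p under 0.05, as had 2022 of all 19625 genes. VIT_13s0067g02930 was at 1200, 973 and 2098 CPM in H and at 442, 633 and 825 CPM in C, higher in H with no overlap (log2 fold change 1.17, 95% interval 0.27 to 2.07, adjusted p = 0.29). The pectin methylesterase was at 21.7, 17.1 and 27.8 CPM in H and at 52.2, 39.7 and 33.4 CPM in C, lower with no overlap (-0.91, 95% interval -1.69 to -0.14, adjusted p = 0.36).

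At T2, in the heatwave, 3 of the 7 were called in H vs. C (2 without the pectin lyase), against 13.6% of all genes, and they went in different directions. The expansin VIT_17s0053g00990 and the pectin lyase were lower in H and PG1 was higher. The other 3 expansins had log2 fold changes of -0.14 to 0.00, with a 95% interval of -0.62 to 0.34 for VIT_18s0001g01130, -0.91 to 0.86 for VIT_13s0067g02930 and -1.15 to 1.16 for VIT_15s0021g02700.

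VIT_17s0053g00990 was at 21.6, 8.43 and 27.6 CPM in H at T2 and at 401, 253 and 378 CPM in C. This was the lowest group mean of the gene among the 22 groups, 17.9-fold under C (log2 fold change -4.16, SE 0.47, adjusted p = 2.1e-07), while the call held without any single T2 library of H or C and under each alternative fit, with log2 fold changes of -4.52 to -3.80 when a library was left out. In H it had been at 97.7, 38.3 and 130 CPM at T1, and its fall from T1 to T2 (-2.21, SE 0.43, adjusted p = 0.00015) ran against the rise in C over the same days.

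PG1 was at 757, 1163 and 1368 CPM in H at T2, its highest group, and at 274, 148 and 259 CPM in C. Every H library was above every C library. The log2 fold change was 2.27 (SE 0.82, adjusted p = 0.048). The call was lost without any of the 3 T2 C libraries or T2 H replicate 2 or 3, with log2 fold changes of 2.04 to 2.43 and adjusted p of 0.084 to 0.14. It was also lost with no filter on low counts (adjusted p = 0.068), with the replicate number as a block (2.31, adjusted p = 0.072) and with the 2 close T5 F libraries summed (adjusted p = 0.052). The pectin lyase had 0 counts in the 3 H libraries and 14, 6 and 6 counts in C, and was at least 2.82-fold lower in H by the floor of 3 counts per library. The ripening score at T2 was 0.732 ± 0.087 in H and 0.588 ± 0.177 in C, and its part in these differences was not tested.

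**Figure D4:**
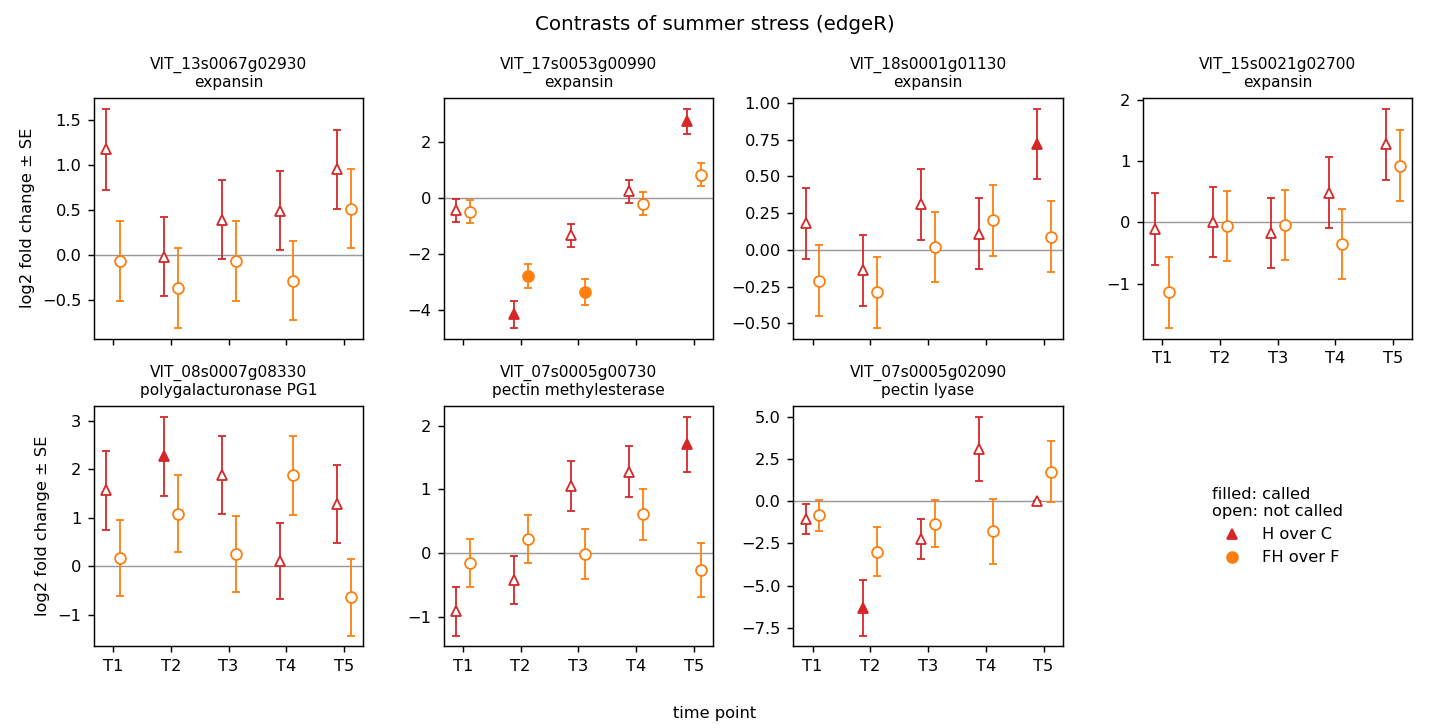
Log2 fold changes (± SE, edgeR) of the 7 genes in H vs. C (triangles) and FH vs. F (circles) from T1 to T5, with a different range in each panel; filled symbols are called. VIT_17s0053g00990 is at -4.16 at T2 and 2.73 at T5 in H vs. C and at -2.79 and -3.36 at T2 and T3 in FH vs. F, and the pectin lyase values of groups at 0 counts depend on the prior count of the fit.

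At T3, also within the heatwave, 0 of the 7 genes were called in H vs. C, against 0.168% of all genes (edgeR), and 0 with DESeq2. Before adjustment 3 of the 7 had a p under 0.05, as had 2789 of all 19625 genes. VIT_17s0053g00990 was at 108, 139 and 103 CPM in H and at 368, 226 and 284 CPM in C (log2 fold change -1.33, 95% interval -2.16 to -0.49, adjusted p = 0.13). PG1 was at 958, 930 and 792 CPM in H and at 87.8, 512 and 123 CPM in C (1.89, 95% interval 0.26 to 3.52, adjusted p = 0.28). In both genes the groups did not overlap. Within H, VIT_17s0053g00990 rose from T2 to T3 by 6.06-fold (2.60, SE 0.44, adjusted p = 0.00047), the 1 member called in that step by edgeR, against 9.61% of all genes. DESeq2 called 2, with the pectin methylesterase as the other (1.07, adjusted p = 0.04), which edgeR called with the replicate number as a block or without T3 H replicate 2 (1.27). The pectin methylesterase was at 51.6, 26.6 and 41.7 CPM in H at T3 and at 22.4, 12.3 and 22.8 CPM in C (1.06, 95% interval 0.28 to 1.84, adjusted p = 0.19).

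At T4, 0 of the 7 were called in H vs. C, against 0.428% of all genes (edgeR), and 0 with DESeq2. Before adjustment 1 of the 7 had a p under 0.05, as had 2955 of all 19625 genes. That 1 was the pectin methylesterase, at 9.81, 10.9 and 12.9 CPM in H and at 5.85, 5.58 and 2.35 CPM in C (log2 fold change 1.28, 95% interval 0.47 to 2.09, adjusted p = 0.11).

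At harvest, 3 of the 7 genes were called in H vs. C, against 12.3% of all genes, and each was higher in H. VIT_17s0053g00990 was at 116, 104 and 230.3 CPM in H and at 28, 20.6 and 19.1 CPM in C, 6.65-fold higher (log2 fold change 2.73, SE 0.44, adjusted p = 3.4e-05). The groups did not overlap, and the call held without any T5 library of H or C. This was the gene that had been 17.9-fold lower in H at T2. The pectin methylesterase was at 3.18, 4.60 and 9.27 CPM in H and at 1.69, 1.51 and 1.99 CPM in C (1.71, SE 0.43, adjusted p = 0.0046), and without T5 H replicate 3 the log2 fold change was 1.17 (adjusted p = 0.11).

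VIT_18s0001g01130 was at 2165, 2572 and 3099 CPM in H at T5 and at 1586, 1814 and 1372 CPM in C, 1.64-fold higher (log2 fold change 0.72, SE 0.24, adjusted p = 0.032). That call was lost without T5 C replicate 1 (0.71, adjusted p = 0.08), T5 C replicate 3 (0.62, adjusted p = 0.14), T5 H replicate 2 (0.73, adjusted p = 0.065) or T5 H replicate 3 (0.57, adjusted p = 0.18), with no filter on low counts (adjusted p = 0.056) and with the replicate number as a block (0.71, adjusted p = 0.053). The other expansins and PG1 had log2 fold changes of 0.95 to 1.29 at T5 with no overlap between H and C, and adjusted p of 0.13 to 0.28. How many of all genes had no overlap there is not given. With only the T5 libraries in the fit, VIT_15s0021g02700 (1.25) and PG1 (1.27) were called. The median log2 fold change was 1.27 over the 7 genes and 0.02 over all genes. T5 H replicate 3 was the highest H library for the 4 expansins, PG1 and the pectin methylesterase. It also had the lowest ripening score of the H libraries, at 0.781 against 0.934 in replicate 1 and 0.901 in replicate 2, where C was at 1 ± 0.011. The part of the ripening score in these differences was not tested.

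Along the H course, 6 of the 7 genes were called from T1 to T2 (5 without the pectin lyase), against 24.2% of all genes. VIT_13s0067g02930, VIT_18s0001g01130, VIT_15s0021g02700 and PG1 were higher at T2 (log2 fold changes 1.07 to 3.55), whereas VIT_17s0053g00990 and the pectin lyase were lower. The call of VIT_13s0067g02930 (1.37, adjusted p = 0.017) was lost without T1 H replicate 1 (1.26, adjusted p = 0.068), T1 H replicate 2 (1.16, adjusted p = 0.096) or T2 H replicate 2 (1.22, adjusted p = 0.059). The pectin lyase had 3, 9 and 2 counts at T1 and 0 at T2, and its call was lost without T1 H replicate 2 (adjusted p = 0.10) or any of the T2 H libraries (0.057 to 0.061). The fold of VIT_15s0021g02700 went from 11.7 to 19.1 and that of PG1 from 10.4 to 16.5 without T1 H replicate 3.

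From T3 to T4, after the heatwave, 3 of the 7 were called in H, against 16.6% of all genes, and each was lower at T4. PG1 went from 958, 930 and 792 CPM to 277, 26.6 and 66 CPM (log2 fold change -2.86, SE 0.84, adjusted p = 0.013), or -4.27 without T4 H replicate 1, and it was not called without T4 H replicate 2 (-2.38, adjusted p = 0.088) or replicate 3 (-2.56, adjusted p = 0.064). The pectin methylesterase fell 3.57-fold (-1.84, SE 0.40, adjusted p = 0.0011). VIT_18s0001g01130 fell 1.78-fold (-0.83, SE 0.24, adjusted p = 0.011), and this was not called without T3 H replicate 1 (-0.71, adjusted p = 0.067), without T4 H replicate 2 (-0.64, adjusted p = 0.10) or with only the H libraries in the fit (adjusted p = 0.051). From T4 to T5 the number called was 0, against 0.346% (edgeR), and 0 with DESeq2. Before adjustment 1 of the 7 had a p under 0.05, as had 2093 of all 19625 genes.

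In vines that had been flooded in spring, the summer stress was compared as FH vs. F. At T1 the number called among the 7 was 0, against 0.0051% of all genes (edgeR; 0 at a p under 0.05 before adjustment and 0 with DESeq2). At T2 and T3 it was 1, against 2.84% and 2.91%. With DESeq2 it was also 1 at each time. At an unadjusted p under 0.05 it was 2 and 1, where 4137 and 3581 of all 19625 genes reached it. The gene called was VIT_17s0053g00990 both times. This expansin was at 47.1, 60.2 and 37.8 CPM in FH at T2 and at 410, 321 and 269.9 CPM in F, 6.90-fold lower (log2 fold change -2.79, SE 0.44, adjusted p = 0.00069). At T3 it was at 47.2, 16.2 and 19.8 CPM in FH and at 235, 249 and 369 CPM in F, 10.3-fold lower (-3.36, SE 0.45, adjusted p = 2.8e-05). The groups did not overlap at either time, both calls held without any single library, and without T3 FH replicate 1 the fold at T3 was 15.8. PG1 was at 536, 574 and 395 CPM in FH at T2 and at 360, 239 and 110 CPM in F. It was higher in FH with no overlap but not called (log2 fold change 1.09 and adjusted p = 0.42 with DESeq2).

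The FH libraries of this expansin went from 384, 157 and 247 CPM at T1 to 47.1, 60.2 and 37.8 CPM at T2 (log2 fold change -2.44, SE 0.43, adjusted p = 0.00064), the 1 member called in that step, against 6.18% of all genes. From T3 to T4 it rose to 65.7, 53.1 and 201 CPM (1.95, SE 0.43, adjusted p = 0.007), again the 1 member called, against 2.44%. Without T4 FH replicate 2 the pectin methylesterase was called in that step too (-1.84). The rise of the expansin was not called without T3 FH replicate 2 (1.66, adjusted p = 0.072) or T4 FH replicate 3 (1.1, adjusted p = 0.14), was 2.57 without T3 FH replicate 1, and neither step was called with only the FH libraries in the fit (adjusted p = 0.077 and 0.25). At T3 it averaged 27.7 ± 17 CPM in FH, 116 ± 19.6 CPM in H and 293 ± 71.1 CPM in C (SD, n = 3). FH was 4.21-fold lower than H with no overlap (-2.07, SE 0.43, adjusted p = 0.015), a call that was lost with only the T3 libraries in the fit (adjusted p = 0.15) and without T3 H replicate 1, T3 H replicate 3 or T3 FH replicate 3.

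The other steps in FH moved little among the 7 genes. From T2 to T3 the number called was 0, against 0.785% of all genes (edgeR), and 0 with DESeq2. Before adjustment 1 of the 7 had a p under 0.05, as had 3717 of all 19625 genes. From T4 to T5 it was 1, against 8.10%: the pectin methylesterase went from 2.69, 14.3 and 5.34 CPM to 2.16, 3.29 and 2.52 CPM, which overlapped (log2 fold change -1.46, SE 0.42, adjusted p = 0.019). Without T4 FH replicate 2, the high library, it was -0.57 (adjusted p = 0.51), and it was also not called without T5 FH replicate 1 (-1.34, adjusted p = 0.064), without T5 FH replicate 2 (-1.65, adjusted p = 0.083) or with only the FH libraries in the fit (adjusted p = 0.25).

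At T4 and T5 the number called in FH vs. F was 0, against 0.194% and 13.5% of all genes (edgeR), and 0 with DESeq2. Before adjustment 1 and 0 of the 7 had a p under 0.05, as had 2012 and 6084 of all 19625 genes. At T4 PG1 was at 164, 601 and 163 CPM in FH and at 80.9, 24.7 and 147 CPM in F, with no overlap (log2 fold change 1.88, 95% interval 0.25 to 3.51, adjusted p = 0.40). At T5 VIT_17s0053g00990 was at 91.1, 89.3 and 86.2 CPM in FH and at 45.8, 49.6 and 54.9 CPM in F, again with no overlap (0.83, 95% interval 0.00 to 1.66, adjusted p = 0.16), but called with only the T5 libraries in the fit (0.80). The median log2 fold change at T5 was 0.51 over the 7 genes and 0.04 over all genes.

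Flooding history was also compared among stressed vines, as FH vs. H. At T1, 1 of the 7 was called, against 0.698% of all genes: VIT_15s0021g02700 was at 479, 122 and 644 CPM in FH and at 85.3, 13.6 and 143 CPM in H (log2 fold change 2.37, SE 0.60, adjusted p = 0.043). The groups overlapped, since FH replicate 2 lay under H replicate 3. The call was lost without T1 H replicate 1 (2.41, adjusted p = 0.25), T1 H replicate 2 (1.86, adjusted p = 0.42), T1 FH replicate 1 (2.25, adjusted p = 0.16) or T1 FH replicate 3 (1.90, adjusted p = 0.18), and the fold was 8.39 without T1 H replicate 3. It was lost too with no filter on low counts (adjusted p = 0.056) and with only the T1 libraries in the fit (adjusted p = 0.17).

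The other 3 expansins and PG1 pointed the same way at T1, with log2 fold changes of 0.74 to 1.62 in FH vs. H, and were not called. VIT_17s0053g00990 came nearest (1.57, SE 0.42, 95% interval 0.73 to 2.41, adjusted p = 0.053), at 384, 157 and 247 CPM in FH and 97.7, 38.3 and 130 CPM in H. DESeq2 called it (adjusted p = 0.012) as well as VIT_18s0001g01130 (adjusted p = 0.045) and VIT_15s0021g02700 (adjusted p = 0.0051), 3 of the 7, against 3.36% of the genes to which it gave an adjusted p. With edgeR, both VIT_17s0053g00990 and VIT_18s0001g01130 were called without T1 H replicate 3 (log2 fold changes 1.95 and 1.09) or without T1 FH replicate 2 (1.83 and 0.92). The ripening score was 0.467 ± 0.108 in FH and 0.318 ± 0.036 in H at T1, and its part was not tested.

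At T3, 2 of the 7 were called in FH vs. H, against 1.30% of all genes, both lower in FH. Beside VIT_17s0053g00990, this was the pectin methylesterase, at 20.9, 10.4 and 12.0 CPM in FH and at 51.6, 26.6 and 41.7 CPM in H, 2.77-fold lower with no overlap (log2 fold change -1.47, SE 0.39, adjusted p = 0.041). Neither was called with only the T3 libraries in the fit (adjusted p = 0.15 for each). The call of the expansin was lost without T3 H replicate 1 (-2.13, adjusted p = 0.069), T3 H replicate 3 (-2.15, adjusted p = 0.063) or T3 FH replicate 3 (-1.88, adjusted p = 0.19), and its fold was 6.48 without T3 FH replicate 1. The call of the methylesterase was lost without T3 H replicate 1 or 3 or T3 FH replicate 2 or 3, with log2 fold changes of -1.24 to -1.44 and adjusted p of 0.09 to 0.33, and with no filter on low counts (adjusted p = 0.05).

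At T2, T4 and T5 the number called in FH vs. H was 0, against 0%, 0.0611% and 0% of all genes (edgeR; 1, 0 and 1 at a p under 0.05 before adjustment and 0 with DESeq2). At T2 VIT_17s0053g00990 was at 47.1, 60.2 and 37.8 CPM in FH and at 21.6, 8.43 and 27.6 CPM in H, all FH libraries above those of H (log2 fold change 1.33, 95% interval 0.48 to 2.18, adjusted p = 1). The order of FH and H in this expansin thus differed between T2 and T3, a change that was not tested.

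Whether flooding history changed the response to summer stress was tested as an interaction, FH vs. F over H vs. C. With edgeR, 0 of the 7 genes were called at T1, T2, T3, T4 or T5, against 0% of all genes at the first 3 of these times, 0.0051% at T4 and 0.52% at T5. An unadjusted p under 0.05 was found in 4 of the 35 pairs of gene and time point. Of all 19625 genes, 911, 473, 1695, 1645 and 2444 had such a p from T1 to T5. At T3 the difference for VIT_17s0053g00990 was -2.03 on the log2 scale (SE 0.58, 95% interval -3.21 to -0.86, adjusted p = 0.43, and 0.20 with DESeq2). At T5 it was -1.91 (SE 0.59, 95% interval -3.08 to -0.73, adjusted p = 0.11), where this expansin was 6.65-fold higher in H vs. C and 1.77-fold higher in FH vs. F. The pectin methylesterase had a difference of -1.97 at T5 (SE 0.60, 95% interval -3.18 to -0.75, adjusted p = 0.11), and it was called without T5 H replicate 1 (-2.25). DESeq2 called both genes at T5 (adjusted p = 0.039 and 0.034), 2 of the 7, against 2.94% of the genes to which it gave an adjusted p.

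Over the 22 group means, the expansins VIT_13s0067g02930, VIT_18s0001g01130 and VIT_15s0021g02700 and PG1 had like patterns, with Pearson r of 0.82 to 0.89 between any 2 of them on log2(CPM + 1). VIT_17s0053g00990 stood apart, with r of 0.18 to 0.42 with these genes. The pectin methylesterase and the pectin lyase went together (r = 0.80), with r of -0.25 to -0.75 with these 4 genes and of 0.06 and 0.20 with VIT_17s0053g00990. These values describe 22 means that share time points, and carry no test.

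**Figure D5:**
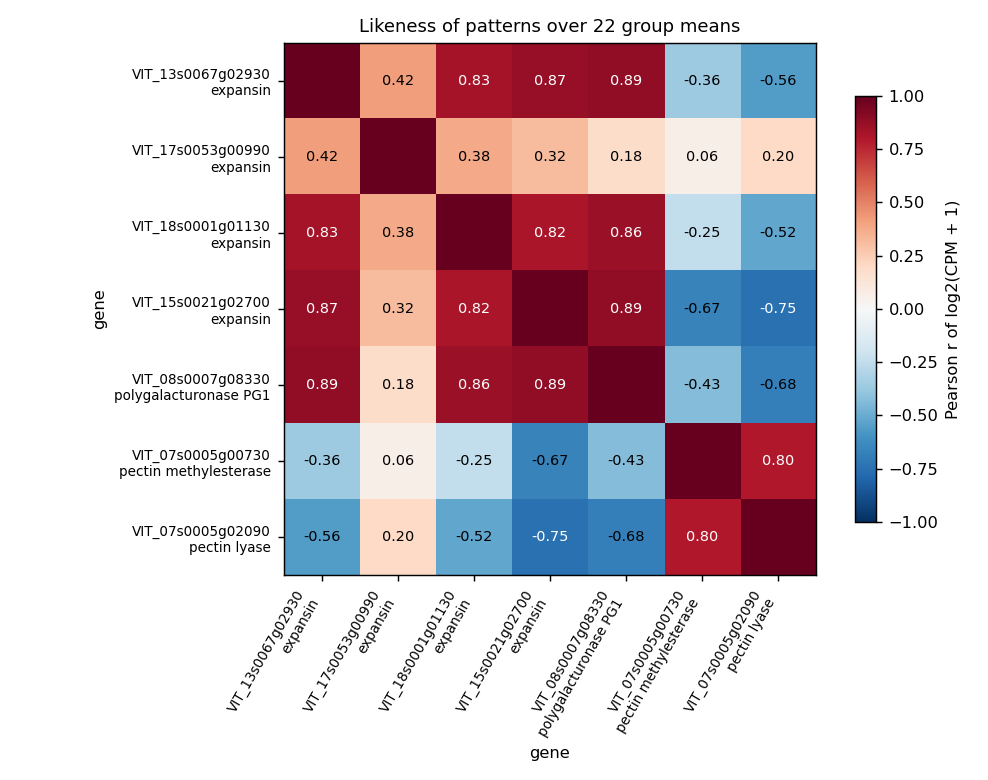
Pearson r between the patterns of the 7 genes over the 22 group means of log2(CPM + 1), each cell a pair of genes. Red cells join 3 expansins and PG1 (0.82 to 0.89) and, apart from them, the pectin methylesterase and the pectin lyase (0.80), while VIT_17s0053g00990 has r of 0.06 to 0.42 with the other genes.

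Against the ripening score, VIT_15s0021g02700 had r = 0.86 over the group means, PG1 0.69, VIT_18s0001g01130 0.61 and VIT_13s0067g02930 0.57. VIT_17s0053g00990 had -0.02, the pectin methylesterase -0.89 and the pectin lyase -0.88. Among the other genes tested, VIT_19s0014g02390 had the pattern most like that of VIT_17s0053g00990 (r = 0.923), and 2 genes reached an r of 0.9 with it. The number at or over 0.9 was 39 for VIT_13s0067g02930, 102 for VIT_18s0001g01130, 221 for VIT_15s0021g02700, 114 for PG1, 285 for the pectin methylesterase and 120 for the pectin lyase. The closest gene was VIT_06s0061g00550 for VIT_13s0067g02930 (0.979), VIT_03s0063g00710 for VIT_18s0001g01130 (0.976), VIT_08s0056g01240 for VIT_15s0021g02700 (0.991) and VIT_17s0000g06300 for PG1 (0.963). It was VIT_10s0116g01780 for the pectin methylesterase (0.971) and VIT_03s0017g02280 for the pectin lyase (0.96).

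Most neighbours in the order of the 22 group means overlapped. For VIT_15s0021g02700 the mean was lowest in C at T0 (0.169 CPM), then in F at T0 (1.24 CPM), H at T1 (80.5 CPM) and C at T1 (86.7 CPM), and 3 of the 21 neighbouring pairs in the order were apart in every library. PG1 was highest in H at T2 (1096 ± 311 CPM) and H at T3 (894 ± 88.7 CPM), which overlapped, while H at T3 and the next group, FH at T3 (505 ± 262 CPM), did not. For VIT_17s0053g00990 each of the 21 neighbouring pairs overlapped, from F at T1 (372 ± 119 CPM) down to H at T2 (19.2 ± 9.82 CPM). The number of neighbours apart was 2 for VIT_13s0067g02930, 1 for VIT_18s0001g01130, 3 for the pectin methylesterase and 0 for the pectin lyase.

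The study lists 6 further genes under the term cell wall, and the files give them no other name. From T0 to T5 each of the 6 fell in C and in F. In C the falls were 24.8-fold to 740-fold, and they were 7.74-fold to 367-fold in F. They thus went the way of the pectin methylesterase and the pectin lyase, and opposite to 3 of the expansins and PG1. The ACC synthase VIT_02s0025g00360, an enzyme of ethylene synthesis that the study lists beside the pectin lyase under ripening, fell 61-fold in C (log2 fold change -5.93, SE 0.74, adjusted p = 3.5e-09), and its pattern had r = 0.94 with the pectin methylesterase and 0.83 with the pectin lyase. The study chose these genes on the same samples, so that their direction is no independent evidence.

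At T1 each of the 6 had a negative log2 fold change in F vs. C (median -1.22, against -0.05 over all genes), with adjusted p of 0.089 to 0.30, so that none was called. In H vs. C at T2, 2 of the 6 were called, against 13.6% of all genes, both lower in H: VIT_02s0154g00080 was at 18.9, 9.43 and 9.42 CPM in H and at 66.4, 28.8 and 68.5 CPM in C (4.35-fold, adjusted p = 0.011), and VIT_09s0002g08510 had 1, 6 and 7 counts in H and was at 12.3, 5.03 and 9.49 CPM in C (33.3-fold, adjusted p = 0.0004). At T5, 3 of the 6 were called, against 12.3%, all higher in H. VIT_02s0154g00080 was at 11.2, 14.9 and 47.2 CPM in H and at 3.50, 2.45 and 3.75 CPM in C (7.54-fold, adjusted p = 0.00093), and VIT_09s0002g08510 (16.9-fold, adjusted p = 0.0061) and VIT_06s0004g04610 (7.87-fold, adjusted p = 0.0022) had 0 to 8 counts per library in C. The groups overlapped for VIT_06s0004g04610, and fits without single libraries were not made for these 6 genes. T5 H replicate 3 was the highest H library in each of the 3. Both genes called at T2 had thus gone from lower in H at T2 to higher in H at T5, as VIT_17s0053g00990 had.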

How the data were processed

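Stranded single-end libraries of berry RNA were aligned by the authors with TopHat to the revised 12X genome of Pinot Noir, where reads with a single mapping were counted for each gene. The deposited counts are whole numbers, not normalized. The paper states no trimming and counting with Bedtools, whereas the processing notes name Trimmomatic 0.39 and featureCounts, so the counting step is unsure. Here counts were scaled by TMM and tested with edgeR 4.0.16 in R 4.3.3 (quasi-likelihood, robust, 1 mean for each of 22 groups), over genes reaching 0.5 CPM in 3 or more libraries. Calls needed an adjusted p (Benjamini-Hochberg, all tested genes of a contrast) below 0.05 and a change of 1.5-fold or more, as in the paper, which used DESeq2. The named genes were the 7 members, the 6 other genes of the term cell wall, the ACC synthase beside the pectin lyase, and the gene closest in pattern to each member. The ripening score used log2(CPM + 4). Alternatives were RLE scaling, no filter, fits within a time point or treatment, a replicate block, T5 F replicates 1 and 2 summed, DESeq2 1.42.0, another pseudocount for the score and the patterns, and leaving out each of 66 libraries. Fits that left out a library kept the dispersion (spread) trend of all libraries, and only the quasi-likelihood dispersions were estimated anew. The test was tried on simulated data. Members and lists were chosen with earlier results of these data known.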

Additional observations from a re-analysis of the deposited data

How the results depend on the processing

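The number of members called in FH vs. H was 3, and it became 1 with no filter on low counts, 0 with only the libraries of the time point and 5 with DESeq2. For the interaction it was 0, and 2 with DESeq2. With only the libraries of a treatment in the fit, the calls over the steps in F went from 7 to 12 and those in FH from 3 to 0. Each other count stayed within 1.5 times under RLE normalization, no filter, the smaller fits, the replicate block, the summed T5 F libraries and DESeq2. The 64 called pairs of gene and contrast included 5 of the pectin lyase, whose low values were in part set by the filter. None of the 64 changed direction, and 63 kept their call under RLE normalization, 59 with no filter, 61 under the replicate block and 63 with DESeq2. With the summed T5 F libraries 63 kept it, and with the smaller fits 53 of the 62 pairs tested there. The cause of these shifts was not tested.

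Leaving out each library in turn gave 5 to 6 calls in F vs. C, 4 to 6 in H vs. C, 2 in every case in FH vs. F, 1 to 5 in FH vs. H, 0 to 1 for the interaction, 13 to 15 over the steps in C, 6 to 7 in F, 8 to 11 in H, 2 to 3 in FH, and 12 in every case for T5 vs. T0. The pectin lyase is counted in these totals, among them those of H vs. C, of the steps in C and H, and of T5 vs. T0.

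By the paper's account, replicate numbers stand for different vines. Deviations from the group mean of same-numbered libraries at a time point had a mean correlation of -0.015 over 93 pairs (-0.63 to 0.73), against 0.008 over 186 pairs of different number, so that the numbers do not pair the samples. With the replicate block the calls in H vs. C went from 6 to 4 and those over the steps in H from 10 to 11. Depth limits the pectin lyase, where 31 libraries had 0 counts, and the T0 values of PG1 and VIT_15s0021g02700.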
